A study of Ovis aries with 3 samples.

Results

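The genes of oxidative phosphorylation were described across single cells of whole sheep embryos. Members were all genes of the deposited tables with symbol prefixes used for subunits of respiratory complexes I to IV or ATP synthase (complex V). NDUFA4L2 and the NDUFAF assembly factors were left out. The members number 77 of 26478 genes. Of these, 11 are encoded in the mitochondrial genome and 66 in the nucleus. The nuclear members comprise 32 of complex I, 1 of complex II (SDHC), 7 of complex III, 10 of complex IV and 16 of complex V. NDUFA4 was counted with complex IV, and the cytochrome b gene is spelled MT-CYTB in the tables. By its symbol ATP5IF1, an inhibitor of ATP synthase, was counted with complex V. Several known subunits, among them COX6A1, COX7A2 and UQCR11, are not among the members, so sums do not cover whole complexes.

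The cells came from whole embryos of 2 breeds, Hulunbuir short-tailed sheep (abbreviated HSTS) and, for comparison, Hu sheep (HS), in 3 libraries without added treatment. The library E19 HSTS was taken at day 19, as was E19 HS, while E16 HS was taken at day 16. Where 3 values stand together without names, they follow this order. By the study's genotyping of rams and ewes, HSTS animals were homozygous for a mutation of the T gene and HS animals for its wild-type allele. Breed and mutation therefore cannot be told apart. Each E19 library is 1 embryo. For E16 HS the series' design names 3 embryos, while the sample's title gives no number. The 1 library may therefore hold a pool. Every library was dissociated with collagenase, passed through red blood cell lysis and counted from the 3′ ends of transcripts as unique molecular identifiers (UMIs). Since each condition has 1 library, no test between conditions was possible, and no p-value is given. Intervals are exact 95% intervals that cover counting error only.

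After filtering, 31576 of 35823 deposited cells remained, with 9618 in HSTS and 10629 in HS at E19, and 11329 in HS at E16. They held 99580051, 88733467 and 113213654 UMIs, with a median of 8675, 6900 and 9046 UMIs per cell. The filter removed cells with more than 10% mitochondrial UMIs, which sets an upper limit on the mitochondrial members themselves. Any pair of libraries shared 31 to 37 barcodes among the kept cells. Levels are UMIs per 1000000 UMIs of the same cells (CPM). In 3′ counts they are not measured per length, so levels are compared for the same gene between samples and not between genes.

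Oxidative phosphorylation is the last stage of respiration in mitochondria. Complexes I and II pass electrons from NADH and succinate to ubiquinone, complex III passes them to cytochrome c, and complex IV (cytochrome c oxidase) passes them to oxygen. Complexes I, III and IV pump protons across the inner membrane, and complex V makes ATP from the proton gradient. Except for complex II, each complex joins core subunits from mitochondrial DNA with many subunits from nuclear genes. The mitochondrial genes are transcribed as long polycistronic RNAs that are cut into single transcripts, whereas each nuclear gene has its own promoter. Heart muscle and the proximal tubule of the kidney are tissues known for dense mitochondria, and maturing red cells lose theirs.

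Summed over all kept cells, the mitochondrial-encoded members stood at 24697 CPM in HSTS and 27089 in HS at E19, and 27575 in HS at E16. The nuclear-encoded members stood at 17027, 19309 and 20675 CPM. The E19 HSTS library was the lowest in both sums. The ratio of mitochondrial to nuclear UMIs was 1.45 in HSTS and 1.40 in HS at E19, and 1.33 in HS at E16. For E19 HSTS to E19 HS the ratio of levels was 0.912 for the mitochondrial and 0.882 for the nuclear members. For E16 HS to E19 HS it was 1.02 and 1.07. Both comparisons use the same E19 HS library and are given side by side for this reason.

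These ratios changed with the choice of cells. Blood progenitor-like cells, which are low in both sums, made up 27.4% of the cells in HSTS and 13.4% in HS at E19, and 17.7% in HS at E16. Without them the mitochondrial ratio of E19 HSTS to E19 HS turned to 1.07 and the nuclear ratio was 0.992. With equal weights for the classes that had at least 50 cells in every library, the ratios were 1.05 and 0.964. The mitochondrial ratio of E16 HS to E19 HS turned to 0.933 without blood progenitor-like cells, and with equal weights both ratios lay below 1, at 0.793 (mitochondrial) and 0.946 (nuclear). In sums over a library, fewer cells of a type and less RNA per cell cannot be told apart. Without blood progenitor-like cells the median over all genes was 1.16 for E19 HSTS to E19 HS and 1.11 for E16 HS to E19 HS. Both member sums lay below it in each comparison. With all kept cells this median was 0.967 for E19 HSTS to E19 HS and 1.21 for E16 HS to E19 HS. TMM scaling moved the latter to 1.05 and put both member sums below 1, at 0.881 and 0.926.

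Genes of stress and dissociation, among them heat shock and immediate early genes, moved with the libraries as well. In E19 HSTS 5 of 9 were higher than in E19 HS, led by HSPA1A at 6.15, where 3.57% of all genes were called higher (a ratio of at least 1.5). In E16 HS 8 of 9 were lower than in E19 HS, down to FOS at 0.0304, where 8.48% of all genes were called lower. In blood progenitor-like cells 2 of 7 of these genes were higher than in other cells, led by HSPA1A at 3.73, and 5 were lower. Of all genes 3.12% were higher and 86.2% lower in that class. Neither the part of these stress genes in the differences between libraries nor that of blood progenitor-like cells in these counts was tested.

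The make-up of the mitochondrial transcripts differed between the libraries more than their sum did. MT-COX3, a core subunit of complex IV, made up 16.3% of mitochondrial UMIs in HSTS and 22.6% in HS at E19, and 15.5% in HS at E16. E19 HS stood apart from both other libraries in this gene. MT-COX1, the catalytic subunit of complex IV, took 6.65%, 5.13% and 3.05%, and was lowest in E16 HS. MT-CYTB, the cytochrome b of complex III, took 19.9%, 18.1% and 26.6%, and was highest in E16 HS. MT-COX2, which takes up electrons from cytochrome c, took 6.42%, 6.34% and 5.08%.

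Among the complex I genes, MT-ND4 took 18.8%, 18.9% and 15.6% of mitochondrial UMIs in the 3 libraries. MT-ND2 took 13.6%, 12.1% and 15.0%, and MT-ND1 took 3.91%, 3.39% and 3.98%. MT-ND3 took 3.29%, 2.83% and 3.89%, and MT-ND5 took 2.47%, 2.09% and 2.70%. These 4 genes were lowest in E19 HS, while MT-ND4 was lowest in E16 HS. MT-ND6, the gene read from the other strand, took 0.0753%, 0.0812% and 0.0591%. MT-ATP6, the proton channel subunit of complex V, varied least, at 8.63%, 8.48% and 8.54%.

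**Figure D1:**
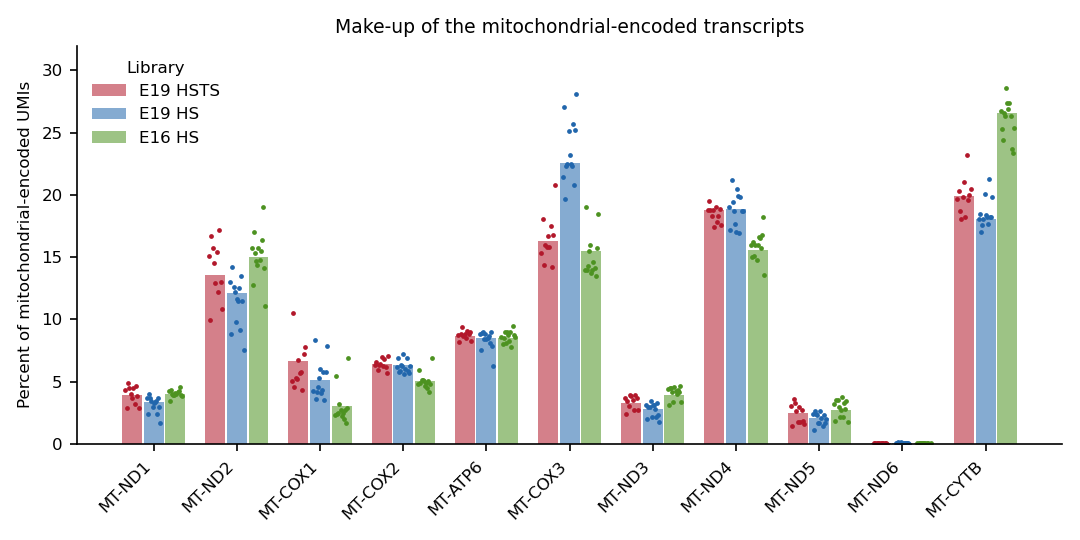
Share of each of the 11 mitochondrial-encoded genes in all mitochondrial-encoded UMIs (percent, y axis), by library. Bars give all kept cells of a library and dots its cell classes. MT-COX3 stood at 22.6% in E19 HS against 16.3% and 15.5% in the other libraries, and MT-CYTB at 26.6% in E16 HS against 19.9% and 18.1%.

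In CPM, MT-COX3 stood at 4014 in HSTS and 6131 in HS at E19, and 4265 in HS at E16. The ratio was 0.655 (0.652 to 0.657) for E19 HSTS to E19 HS and 0.696 (0.693 to 0.698) for E16 HS to E19 HS. MT-COX1 stood at 1642, 1389 and 841 CPM, which gave ratios of 1.18 (1.17 to 1.19) and 0.605 (0.6003 to 0.611). The complex IV genes of the mitochondrion thus did not keep 1 ratio to each other between libraries. MT-CYTB stood at 4918, 4905 and 7331 CPM, with ratios of 1.00 (0.999 to 1.01) and 1.49 (1.489 to 1.5). MT-COX3 and MT-COX1 kept these directions under all 10 alternative settings, with MT-COX3 between 0.633 and 0.773 in the first comparison. MT-CYTB stayed above 1 in E16 HS under all 10, between 1.12 and 1.56.

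The differences in make-up were followed through cell classes with at least 50 cells in both libraries compared, which gave 11 classes in each comparison, not the same 11. The MT-COX3 share was lower in E19 HSTS than in E19 HS in 11 of 11 classes, with ratios from 0.667 to 0.739. It was lower in E16 HS than in E19 HS in 11 of 11 classes, from 0.569 to 0.710. The MT-COX1 share was lower in E16 HS in 11 of 11, from 0.343 to 0.754, and the MT-CYTB share was higher in 11 of 11, from 1.29 to 1.51. MT-ND1, MT-ND2, MT-ND3 and MT-ND5 also had a higher share in E16 HS in 11 of 11 classes, while MT-COX2 and MT-ND4 had a lower one in 11 of 11. Classes of a library share its preparation and its free RNA, so they are not replicates. Among classes, blood progenitor-like cells had the largest MT-COX1 share in the E19 libraries, at 10.5% (HSTS) and 8.31% (HS).

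For the nuclear members, differences were mostly small. At least 100 UMIs in the higher library were reached by 60 of the 66. A ratio of at least 1.5 or at most 1/1.5 was called here. For E19 HSTS to E19 HS, 0 of 71 members that passed the minimum were called higher, against 3.57% of all genes, and 1 was called lower (MT-COX3), against 5.25%. The median nuclear ratio was 0.896, below the 0.967 of all genes, and 50 of 60 ratios were below 1. For 45 of the 60 the counting interval lay wholly below 1, and for 8 it lay above. Of all members below 1, 31 of 55 stayed there under every alternative, and of those above 1, 12 of 16 did.

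The lowest nuclear ratios of E19 HSTS to E19 HS were those of COX8A, ATP5MC2, COX7A1 and NDUFS3. COX8A, a small subunit of complex IV, stood at 381 CPM in E19 HSTS and 542 in E19 HS (ratio 0.703, 0.693 to 0.712). ATP5MC2 (ENSOARG00020018507), which encodes the c subunit of the ATP synthase ring, stood at 875 and 1194 CPM (0.733, 0.726 to 0.740). Its symbol is carried by 2 genes, so its reads may have been split between copies, of which the other held 3 to 24 UMIs per library. COX7A1, an isoform of complex IV known from muscle, stood at 32.6 and 43.7 CPM (0.746, 0.711 to 0.781), and NDUFS3, a core subunit of complex I, at 113 and 145 (0.777, 0.757 to 0.796).

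The highest nuclear ratios of this comparison were small. NDUFS1, the largest subunit of complex I, stood at 15.8 CPM in E19 HSTS and 13.2 in E19 HS (ratio 1.2, 1.11 to 1.30). NDUFV3 stood at 104 and 92.7 CPM (1.12, 1.09 to 1.15). COX6B2, known best from testis, stood at 3.29 and 2.88 CPM (1.14, 0.967 to 1.35), an interval that holds 1. COX6A2 stood at 11.1 and 9.08 CPM (1.23, 1.12 to 1.34), but its direction turned under the stricter filter, equal class weights and thinning.

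For E16 HS to E19 HS, 3 of 71 members were called higher, against 23.3% of all genes, and 3 were called lower, against 8.48%. The median nuclear ratio was 1.10, beside 1.21 for all genes. SDHC, a membrane anchor of complex II, stood at 4.04 CPM in E16 HS and 2.40 in E19 HS (ratio 1.68, 1.43 to 1.99). NDUFV3 stood at 140 and 92.7 CPM (1.51, 1.47 to 1.56) and NDUFS1 at 19.9 and 13.2 (1.51, 1.40 to 1.62). NDUFV2 and MT-CYTB lay just under the limit, at 1.5 and 1.49. Under TMM scaling SDHC, NDUFV3 and NDUFS1 were at 1.45, 1.31 and 1.30, and with equal class weights at 1.06, 1.17 and 1.09, which is within the limit in each case.

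The 3 members called lower were MT-COX1 and the muscle isoforms of complex IV. COX6A2, the isoform of heart and skeletal muscle, stood at 0.398 CPM in E16 HS and 9.08 in E19 HS, a ratio of 0.0438 (0.0317 to 0.0591). COX7A1 stood at 22.6 and 43.7 CPM, a ratio of 0.518 (0.493 to 0.545). COX6A2 remained between 0.0344 and 0.175 under the alternatives, and COX7A1 between 0.448 and 0.602. Cardiomyocyte-like cells, the main source of COX6A2 described further on, made up 0.853%, 1.03% and 0.212% of the cells in the 3 libraries.

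Outside complex II, the nuclear members with most UMIs in each complex stayed within the limits in both comparisons. In complex I, NDUFS5 had 391, 447 and 512 CPM and NDUFB10 had 386, 429 and 471. In complex III, UQCRH had 662, 788 and 701 CPM, and UQCR10, with 636, 625 and 561, was the only one of them with its highest level in E19 HSTS. In complex IV the ubiquitous subunits COX4I1 and NDUFA4 differed little, with ratios of 0.928 and 0.953 for E19 HSTS to E19 HS and of 0.972 and 0.980 for E16 HS to E19 HS. In complex V, ATP5MC3 had 855, 1098 and 1521 CPM, while its relative ATP5MC2 (ENSOARG00020018507) had 875, 1194 and 856, so that the c subunit genes took opposite directions in E16 HS, at 1.39 (1.37 to 1.40) and 0.717 (0.711 to 0.723).

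**Figure D2:**
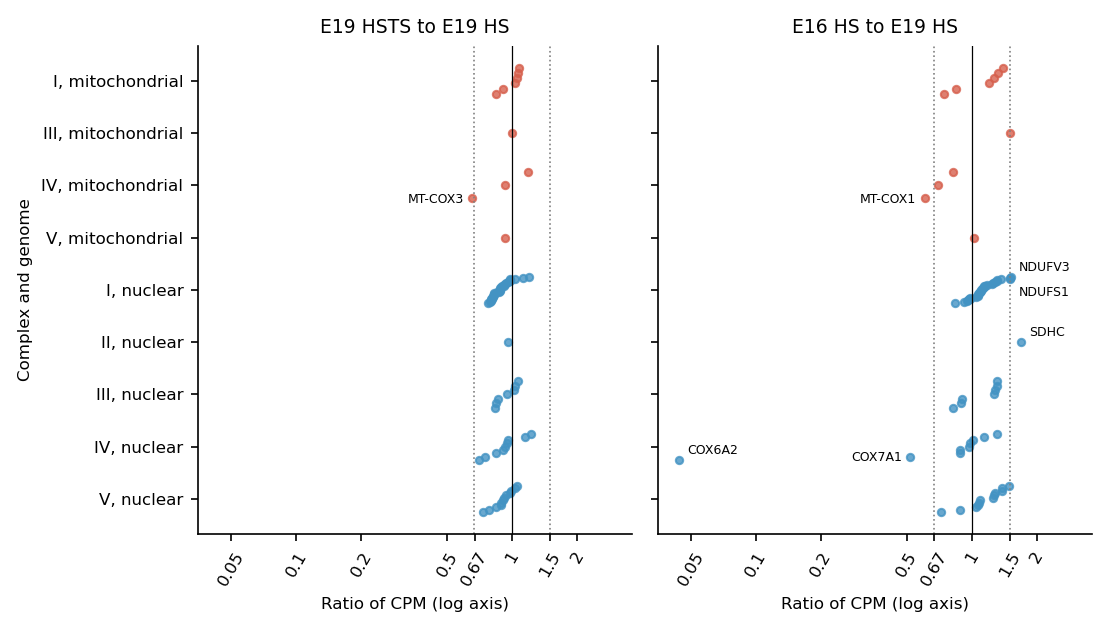
Ratio of CPM between libraries (x axis, logarithmic) for members with at least 100 UMIs in the higher library, by complex and genome (y axis). Red points are mitochondrial-encoded, blue points nuclear-encoded, and dotted lines mark 1.5-fold in either direction. MT-COX3 alone passed a limit in E19 HSTS to E19 HS, and COX6A2, at 0.0438, lay farthest from 1 in E16 HS to E19 HS.

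By complex, the nuclear sums of E19 HSTS to E19 HS were 0.875 for complex I, 0.922 for complex III, 0.884 for complex IV and 0.873 for complex V. Those of E16 HS to E19 HS were 1.11, 1.00, 0.988 and 1.10. SDHC, the only member of complex II, rested on 213 to 457 UMIs per library. The mitochondrial part of complex IV gave 0.784 and 0.704, the lowest of the mitochondrial parts in each comparison. The mitochondrial part of complex I gave 0.977 and 1.07.

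Cell classes were rebuilt by clustering without the members and named by marker genes, and a name means resemblance only. Clusters were built on these same cells, so a class against the rest is a description. In the named classes apart from cardiomyocyte-like, urogenital-like and blood progenitor-like cells, and with at least 50 cells, the nuclear sum lay between 18765 and 21673 CPM in HSTS and 19536 and 23713 in HS at E19, and 19192 and 22871 in HS at E16. The mitochondrial sum was more spread, from 29420 to 38532, from 26017 to 36997 and from 15827 to 33057 CPM. Cardiomyocyte-like cells lay above these ranges in both sums in every library, and blood progenitor-like cells lay below the nuclear ones in every library.

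**Figure D3:**
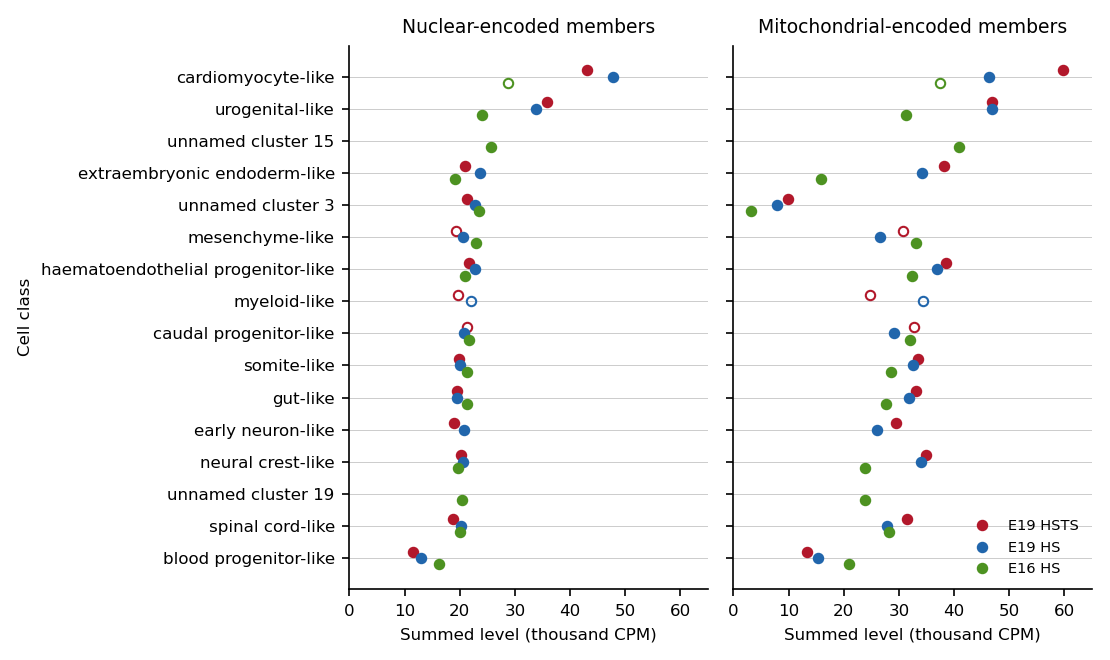
Summed level of the nuclear-encoded (left) and mitochondrial-encoded members (right) in units of 1000 CPM (x axis), by cell class (y axis) and library (colour). Open circles mark fewer than 50 cells, and classes under 20 cells in a library are left out. Cardiomyocyte-like and urogenital-like cells of the E19 libraries were highest in both panels.

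The cardiomyocyte-like cells numbered 82 in HSTS and 109 in HS at E19, and 24 in HS at E16. They were led by MYL7, MYL3 and MYH6, heart muscle genes, and their marker list summed to 32625, 32650 and 19313 CPM, with 7 of 9 listed markers detected. In other classes the list summed to at most 201 CPM, except in unnamed cluster 19, with 832 to 1338 CPM. Their nuclear members summed to 43106 CPM in HSTS and 47841 in HS at E19, and 28672 in HS at E16, which was 2.57, 2.51 and 1.39 times the other cells. The mitochondrial members summed to 59828, 46404 and 37483 CPM, or 2.46, 1.72 and 1.36 times the other cells. Under a filter that keeps only cells under 5% mitochondrial UMIs and with at least 500 genes, these mitochondrial ratios were 1.68, 0.824 and 1.08, so that the direction turned in E19 HS. The E16 HS cells lay lowest in both sums, and their number, under 50, kept them out of the comparison between libraries.

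Nearly every nuclear member shared this level in the median of the 3 libraries. Such a median can pass 1.5 without E16 HS, whose summed nuclear ratio was 1.39. With the median of the 3 libraries' ratios past 1.5, 54 of 59 nuclear members that passed the UMI minimum in each library were higher, against 18.2% of all genes, and 0 were lower, against 30.4%. The median was 2.28 for the nuclear members and 0.927 for all genes. Higher members made up 30 of 31 in complex I, 7 of 7 in complex III, 6 of 8 in complex IV and 10 of 12 in complex V. Of the mitochondrial members 6 of 11 were higher.

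COX7A1 had the largest median ratio, 7.73, at 307 CPM in HSTS and 318 in HS at E19, and 104 in HS at E16. ATP5F1C, the gamma subunit of the ATP synthase rotor, followed at 4.05, with 758, 815 and 443 CPM. UQCRFS1, the Rieske iron-sulphur protein of complex III, was at 3.92, with 991, 1049 and 596 CPM. NDUFV3 was at 3.78 and ATP5MC3, another c subunit gene, at 3.47. In each of these genes the E16 HS cells had the lowest level.

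The members at the other end were COX6B2 at 0.846, NDUFB3 (ENSOARG00020017061) at 1.10, ATP5MC2 (ENSOARG00020018507) at 1.16, COX7A2L at 1.36 and ATP5IF1 at 1.47. In these cells COX6B2 rested on 3, 0 and 3 UMIs and NDUFB3 on 17, 10 and 0, and NDUFB3 is another symbol carried by 2 genes. Of the c subunit genes of complex V, ATP5MC3 and ATP5MC2 thus lay far apart in the same cells. MT-COX1 led the mitochondrial members at 2.67 and MT-COX3 followed at 2.15.

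COX6A2 was concentrated in these cells. Of its UMIs, 1003 of 1109 in HSTS and 690 of 806 in HS at E19, and 25 of 45 in HS at E16 came from cardiomyocyte-like cells. At least 1 UMI was found in 89.0% (80.2 to 94.9%), 77.1% (68.0 to 84.6%) and 45.8% (25.6 to 67.2%) of them, at median depths of 12550, 4889 and 5126 UMIs. Blood progenitor-like cells, taken as a class that should lack it, had 0.266%, 0.493% and 0 of 2001 cells with a UMI (3 cells of that total would be 0.150%), at median depths of 17506, 17570 and 13946 UMIs. Thinned to 3000 UMIs per cell, which left 76, 75 and 20 cells, the shares in cardiomyocyte-like cells were 76.3%, 69.3% and 30.0%. Within the class the level was 933 CPM in HSTS and 850 in HS at E19, and 173 in HS at E16, the last from 24 cells.

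COX7A1 was spread more widely. Beside cardiomyocyte-like cells it was high in urogenital-like cells of E19 (117 CPM in E19 HSTS and 153 in E19 HS, against 29.1 in E16 HS). In myeloid-like cells it reached 145 CPM (89.6 to 221) in E19 HSTS and 188 (145 to 240) in E19 HS, from 20 and 49 cells, and 6.17 (0.156 to 34.4) in E16 HS from 14 cells. Blood progenitor-like cells had 11.3, 9.09 and 8.05 CPM.

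The E19 HS cardiomyocyte-like cells fell into 2 sets by their mitochondrial share. Under 0.5% mitochondrial UMIs lay 51 of 109 cells (46.8%, 37.2 to 56.6%) in E19 HS, 6 of 82 in E19 HSTS and 3 of 24 in E16 HS. In E19 HS these cells had a median of 2306 UMIs against 10368 in the rest. Their mitochondrial sum was 525 CPM against 58167, while their nuclear sum was 58375 against 45141 CPM. The sum over the class thus mixed shallow cells nearly without mitochondrial UMIs with deeper cells that had many. Without the cells under 0.5%, the mitochondrial ratio of E19 HSTS to E19 HS in the class moved from 1.29 (1.27 to 1.31) to 1.04 (1.03 to 1.05), and the nuclear ratio from 0.901 to 0.954. What these cells are was not tested.

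**Figure D4:**
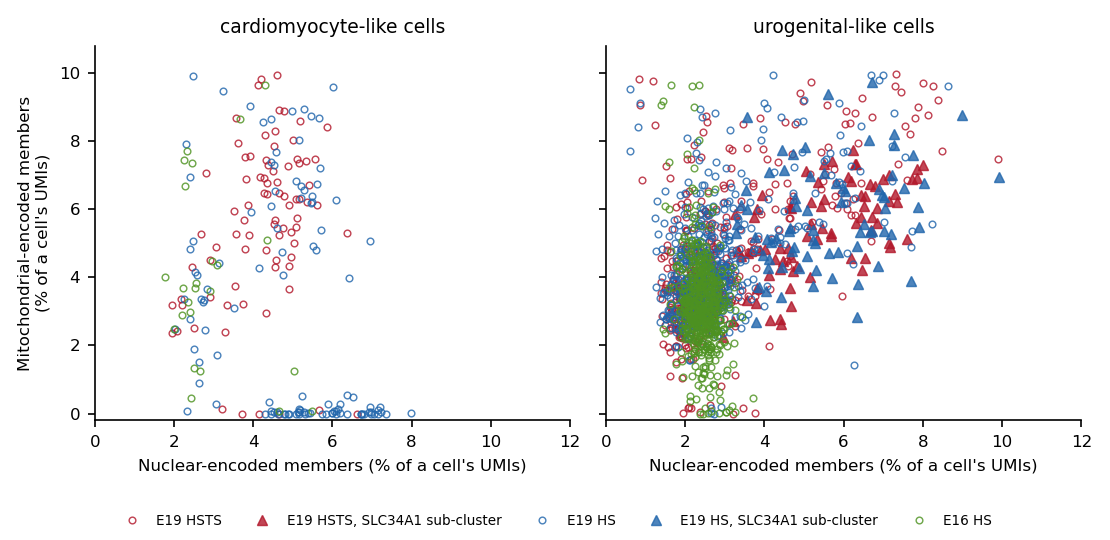
Share of mitochondrial-encoded members (y axis, percent of a cell's UMIs) against nuclear-encoded members (x axis, same unit) in each cardiomyocyte-like (left) and urogenital-like cell (right), coloured by library. Triangles mark the SLC34A1 sub-cluster, and the filter ends the y axis at 10%. In cardiomyocyte-like cells of E19 HS, 51 of 109 lay under 0.5% on the y axis.

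The urogenital-like cells (487 in HSTS and 581 in HS at E19, and 517 in HS at E16) were chosen for description once their values were known. Only 1 marker of their list (LHX1) was among their 10 leading genes, which also held kidney epithelial genes such as CDH16 and SLC12A1, and C1QA of the myeloid list. Their nuclear members summed to 35820 CPM in HSTS and 33812 in HS at E19, and 23957 in HS at E16, or 2.24, 1.84 and 1.17 times the other cells. The mitochondrial members summed to 46918, 46797 and 31310 CPM, or 2.00, 1.81 and 1.15 times. The E19 libraries lay close together and E16 HS lay below them, with ratios to E19 HS of 0.709 (0.704 to 0.713) for the nuclear and 0.669 (0.665 to 0.673) for the mitochondrial members.

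In this class 47 of 59 nuclear and 10 of 11 mitochondrial members were past 1.5 as the median of the libraries, beside 34.7% of all genes. In the other direction 0 were lower, against 7.49% of all genes. Such a median can pass without E16 HS, whose 2 summed ratios given above lay under 1.5. COX7A1 led at 4.12, followed by NDUFA8 (2.66), ATP5MC3 (2.64), NDUFA6 (2.54) and ATP5F1B (2.44), the catalytic beta subunit of ATP synthase. NDUFA8 stood at 466 CPM in HSTS and 405 in HS at E19, and 266 in HS at E16. The smallest ratios were those of NDUFB2 at 1.23, SDHC and COX6B2 at 1.25 each, ATP5MC2 at 1.31 and NDUFA7 at 1.40.

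At a finer clustering, 150 cells led by SLC34A1, a phosphate carrier of the kidney's proximal tubule, separated from the class, 76 in HSTS and 74 in HS at E19, and 0 of 517 in HS at E16, where 3 cells of that total would be 0.580%. All 150 belonged to the urogenital-like class. Their nuclear members summed to 53961 CPM in E19 HSTS and 57065 in E19 HS, against 30973 and 28918 in the other urogenital-like cells, which is 1.74 and 1.97 times as high. The mitochondrial members differed less, by 1.17 and 1.32 times. Among genes with enough UMIs in these 150 cells, 43 of 53 nuclear members were past 1.5 in both E19 libraries, against 20.2% of all genes. This minimum was set on the sub-cluster's own UMIs, so genes low in it were left out more readily. Both shares therefore lean towards genes that are high in these cells and cannot stand for all members. Nuclear members left out lay on both sides, such as NDUFS1 (2.62 in E19 HSTS and 2.07 in E19 HS) and COX7A2L (0.928 and 1.37). COX7A1 stood out with 309 and 532 CPM against 66.1 and 72.7. Leaving these cells out moved the E16 HS to E19 HS ratio of the class to 0.828 (nuclear) and 0.706 (mitochondrial), both still below 1.

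The blood progenitor-like cells (2636 in HSTS and 1420 in HS at E19, and 2001 in HS at E16) were the low end of the nuclear range. Their nuclear members summed to 11503, 13072 and 16211 CPM, or 0.531, 0.599 and 0.733 times the other cells. The mitochondrial members summed to 13367, 15367 and 21027 CPM, or 0.391, 0.483 and 0.708 times. The E16 cells were highest and the HSTS cells lowest in both sums. The cells of the class were deep. Clusters 4, 8, 5 and 13, which form it, had median depths of 1.86, 2.49, 1.53 and 2.47 times their library's median. Levels are shares of a cell's UMIs, so a low level here does not mean fewer transcripts per cell. Different clusters hold most of the class at E19 (clusters 4 and 8) and at E16 (cluster 5). No listed marker was among the leading genes of cluster 5, whose name rests on 7 detected markers and their mean level.

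In these cells 39 of 59 nuclear members were lower and 1 was higher, where 86.2% of all genes were lower and 3.12% higher. The median ratio of the nuclear members, 0.581, lay above that of all genes, 0.298. The exception was ATP5IF1, the inhibitor protein that stops ATP synthase from running in reverse and is known for a role in haem synthesis. It stood at 959 CPM against 548 in the other cells of E19 HSTS, 1076 against 568 in E19 HS and 893 against 547 in E16 HS, a median ratio of 1.75.

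Near 1 in the same cells were UQCR10 at 1.01, NDUFB2 at 1.00, UQCRB at 0.976 and NDUFV1 at 0.948. The lowest were COX6B2 at 0.0798, ATP5MC2 (ENSOARG00020018507) at 0.185, COX7A1 at 0.225, NDUFB3 (ENSOARG00020017061) at 0.319 and NDUFA6 at 0.366. ATP5MC2 stood at 244 CPM against 1404 in HSTS and 288 against 1560 in HS at E19, and 388 against 1007 in HS at E16. Of the mitochondrial members 10 of 11 were lower, which is near the 86.2% of all genes, and MT-COX1 was the least low, at 0.762 in HSTS and 0.890 in HS at E19, and 1.54 in HS at E16.

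**Figure D5:**
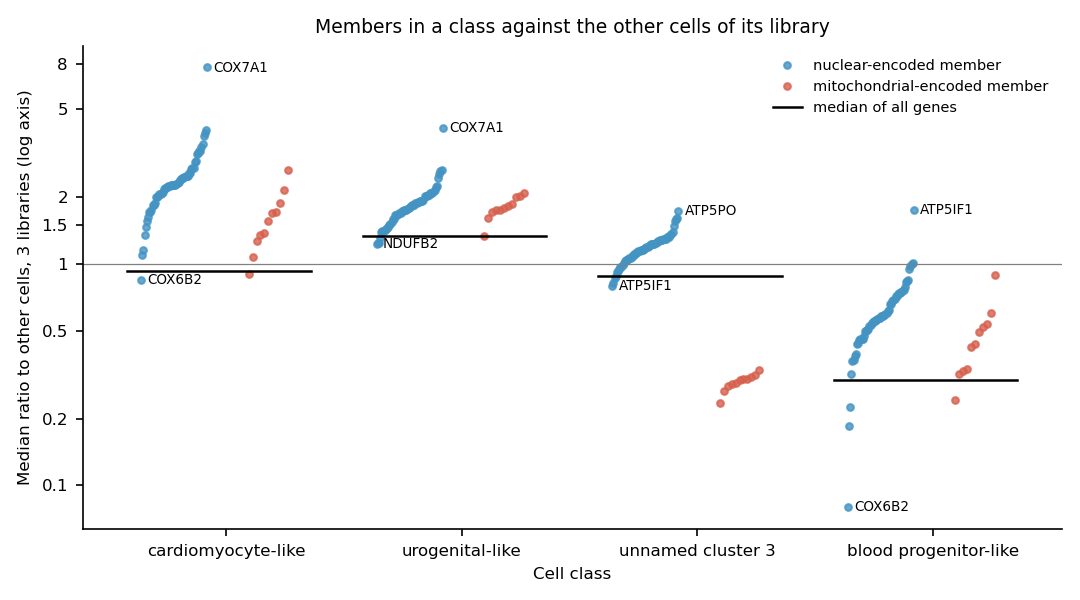
Median over the 3 libraries of each member's ratio to the other cells (y axis, logarithmic) in 4 cell classes (x axis), for members with enough UMIs. Blue points are nuclear-encoded members, red points mitochondrial-encoded ones, and black lines give the median of all genes. ATP5IF1 stood apart at 1.75 in blood progenitor-like cells, and all 11 mitochondrial members lay below 1 in unnamed cluster 3.

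Cluster 3 stayed unnamed, since no marker list had at least 3 markers detected in it. Its cells were shallow (median 1737 UMIs in HSTS and 1506 in HS at E19, and 2267 in HS at E16), and no marker was among its leading genes. It held 773, 872 and 1299 cells. Its mitochondrial members summed to 9872, 7967 and 3265 CPM, or 0.396, 0.290 and 0.115 times the other cells. Its nuclear members summed to 21328, 22860 and 23432 CPM, or 1.26, 1.19 and 1.14 times. All 11 mitochondrial members were lower, against 30.8% of all genes, and 4 of 59 nuclear members were higher, against 5.95%. Under 0.5% mitochondrial UMIs lay 68.4%, 74.2% and 84.1% of its cells. The library comparisons without this cluster are given with the other alternatives.

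Between libraries, the classes did not move alike. For E19 HSTS to E19 HS the mitochondrial ratio was above 1 in 10 of 11 classes, and blood progenitor-like cells were the exception at 0.870 (0.866 to 0.873). Urogenital-like cells lay at 1.00 (0.997 to 1.01). The nuclear ratio was below 1 in 10 of 11 classes, from 0.880 in blood progenitor-like cells, with urogenital-like cells the exception at 1.06. For E16 HS to E19 HS the mitochondrial ratio ran from 0.410 in cluster 3 to 1.37 in blood progenitor-like cells and was below 1 in 7 of 11. The nuclear ratio ran from 0.709 to 1.24 and was below 1 in 5 of 11. Extraembryonic endoderm-like cells had the second lowest mitochondrial ratio, 0.463, and 30 of these 57 cells in E16 HS held under 0.5% mitochondrial UMIs.

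Other genes of mitochondrial energy supply were counted from lists. For E19 HSTS to E19 HS, 0 of 34 assembly factors, 0 of 11 electron and nucleotide carriers and 0 of 22 genes of mitochondrial DNA expression passed 1.5-fold in either direction. Their medians were 0.925, 0.850 and 0.928. In the tricarboxylic acid cycle 1 of 17 was higher (DLST, 1.5). In glycolysis 13 of 20 were lower with a median of 0.586, down to 0.00309 for GAPDH (4.57 against 1477 CPM), a gap whose cause was not tested. Of all genes 3.57% were higher and 5.25% lower in this comparison. Blood progenitor-like cells, with a glycolysis median of 0.195 against other cells, numbered 2636 of 9618 in E19 HSTS and 1420 of 10629 in E19 HS. Their part in the glycolysis count was not tested. NDUFA4L2, a relative of NDUFA4 that low oxygen induces, was at 0.255.

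For E16 HS to E19 HS, 5 of 36 assembly factors, 3 of 11 carriers, 4 of 17 genes of the tricarboxylic acid cycle and 9 of 21 of glycolysis were higher, with medians of 1.23, 1.17, 1.21 and 1.46. CYCS, cytochrome c itself, led the carriers at 2.12. Of 24 genes of mitochondrial DNA expression 6 were higher, led by POLG, the mitochondrial DNA polymerase, at 2.20. PPARGC1A, a coactivator that drives mitochondrial biogenesis, was lower at 0.257. These shares stand beside the 23.3% of all genes that were higher in E16 HS.

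In cardiomyocyte-like cells the tricarboxylic acid cycle followed the nuclear members, with 16 of 17 genes higher and a median of 2.97. Of all genes 18.2% were higher and 30.4% lower in this class. Of the carriers 9 of 11 were higher and 1 lower (UCP2), led by SLC25A4, the ATP/ADP exchanger of heart and muscle, at 30.4. Glycolysis genes were higher in 18 of 19, and 17 of 33 assembly factors were higher and 4 lower. Of the genes of mitochondrial DNA expression 5 of 20 were higher and 2 lower, with a median of 1.15, which is near the share of all genes that were higher. In urogenital-like cells the tricarboxylic acid cycle was higher in 17 of 17 with a median of 2.08, beside 34.7% of all genes. Glycolysis, higher in 7 of 19, was near that share. In blood progenitor-like cells 12 of 17 genes of the cycle, 16 of 19 of glycolysis and 19 of 20 of mitochondrial DNA expression were lower, against 86.2% of all genes.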

How the data were processed

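The values are UMI counts per gene and cell as deposited, for barcodes called as cells. The authors aligned reads with Cell Ranger 6.1.2 to the sheep genome they name Ovis_aries_genome_v1.0, and whether introns were counted is not given in the sources used here. A cell was kept where it had between 200 and 6000 genes, between 1000 and 30000 UMIs and no more than 10% MT- UMIs, after the study's methods. Raw counts were summed per library or class and divided by all UMIs of the same cells. Library sums held 88733467 to 113213654 UMIs.

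Intervals were exact Poisson (levels), exact conditional (ratios) and exact binomial (shares), at the 95% level. A ratio of at least 1.5 or at most 1/1.5, with at least 100 UMIs in the higher library, was called. Class ratios were taken within each library, and the median of 3 was used for genes with 100 UMIs in each library. Clusters were made in Seurat 5.3.0 (R 4.3.3) with 2000 variable genes, from which members and MT- genes were removed, 25 components and a resolution of 0.25. Unlike in the study, the mitochondrial share was not regressed out and the libraries were clustered together without Harmony batch correction. Some clusters came mostly from a single library, such as cluster 5, with 1791 of 1797 cells from E16 HS. Doublets were left in. Scrublet (scanpy 1.11.5) called 0 doublets in E19 HS, so an alternative left out the 8% of cells with the highest scores in each library. TMM factors came from edgeR 4.0.16, and sums from Python 3.11.15.

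Members and lists were chosen with earlier results of these data known. Named were all mitochondrial members, tissue isoforms, the 5 largest and 5 smallest ratios of each comparison and class, the 2 nuclear members with most UMIs per complex, and leading genes of the lists. The urogenital-like class with its genes, and the SLC34A1 sub-cluster with the genes named there, were chosen after values were seen. SDHA, SDHB, SDHD, MT-ATP8 and MT-ND4L were not analysed here. Further subunits are missing from the members as well, such as COX5B, COX6A1, COX6C, COX7A2, COX7B, COX7C, UQCR11, NDUFB8 and ATP5F1E. The nuclear sums and the ratios of mitochondrial to nuclear UMIs therefore cover only the members listed. ATP5MC2, ATP5MD and NDUFB3 are each carried by more than 1 gene. The calls and intervals were tried on simulated Poisson counts drawn from rates averaged over the libraries compared. These hold no variation between embryos or cells, so the trial covers counting error only. No sequence or coordinate was used.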

Additional observations from a re-analysis of the deposited data

Results flagged for a closer look

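The summed members moved in opposite directions in different cell classes under the same library comparison. These differences were not tested, since each condition has 1 library. For E19 HSTS to E19 HS, the mitochondrial-encoded sum was at 0.870 in blood progenitor-like cells and at 1.29 in cardiomyocyte-like cells. The latter was 1.04 without cells under 0.5% mitochondrial UMIs. The nuclear-encoded sum was at 0.880 in blood progenitor-like cells and at 1.06 in urogenital-like cells.

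For E16 HS to E19 HS, the mitochondrial-encoded sum was at 0.410 in unnamed cluster 3 and at 1.37 in blood progenitor-like cells. The nuclear-encoded sum was at 0.709 in urogenital-like cells, or 0.828 without the SLC34A1 sub-cluster, and at 1.24 in blood progenitor-like cells. Different clusters hold the blood progenitor-like cells of the E16 and E19 libraries.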

How the results depend on the processing

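No paired analysis was possible because each condition has 1 library. A setting below leaves MT- and globin genes out of the total, but only 3 globin symbols were found. They held 4815 UMIs in HSTS and 4651 in HS at E19, and 4313 in HS at E16. That setting therefore cannot show what globin RNA does to the ratios. For E19 HSTS to E19 HS, the mitochondrial sum (0.912) turned to 1.07 without blood progenitor-like cells and 1.05 with classes weighted equally. It was 0.878 under the stricter filter (at least 500 genes, under 5% mitochondrial UMIs), 0.933 with all deposited cells, 0.948 with TMM, 0.909 with MT- and globin genes out of the total, 0.956 thinned, 0.904 without high doublet scores, and, in settings chosen after seeing the data, 0.909 without cluster 3 and 0.892 without MT-CYTB. The nuclear sum (0.882) was, in the order of these settings, 0.992, 0.964, 0.864, 0.891, 0.917, 0.880, 0.893 and 0.878, and 0.885 without cells under 0.5% mitochondrial UMIs. The count of called members (1) was 2 under the stricter filter and without cells under 0.5%, 0 with TMM and thinned, and 4 with no UMI minimum. Without blood progenitor-like cells it was 1 as well, but MT-COX3 was no longer called and COX6A2 was higher, at 1.61. The median ratio over all genes was 1.16 in that setting, above both sums. With equal weights COX6B2 was the 1 member called, higher at 1.54.

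For E16 HS to E19 HS, the mitochondrial sum (1.02) turned to 0.881 with TMM, 0.933 without blood progenitor-like cells, 0.793 with equal weights, 0.930 thinned and 0.913 without MT-CYTB, and was 1.03 with all cells and without cluster 3, 1.01 without high doublet scores and 1.06 without cells under 0.5%. The nuclear sum (1.07) turned to 0.926 with TMM and 0.946 with equal weights, and was 1.11 under the stricter filter, 1.09 with all cells, 1.01 without blood progenitor-like cells, 1.03 thinned and 1.07 without high doublet scores. The count (6) was 10 with all cells and with no UMI minimum. The split of 3 higher and 3 lower became 0 and 6 with TMM (3 members shared) and with equal weights (MT-COX1, COX6A2 and COX7A1 shared), 1 and 6 both without blood progenitor-like cells and thinned (4 shared each), and 6 and 3 under the stricter filter (6 shared).

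The mitochondrial ratio of cardiomyocyte-like cells (1.72) was 1.08 under the stricter filter, which by construction removes cells with 5% or more, and by library 1.68, 0.824 and 1.08, so it turned in E19 HS. Their nuclear ratio (2.51) and both ratios of blood progenitor-like cells (0.599 and 0.483) did not cross 1 in 9 alternatives each. Beyond the settings' own construction, causes were not tested. Depth limits SDHC, COX6B2, NDUFB3 and the 24 cardiomyocyte-like cells of E16 HS.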
